A study of Mus musculus with 6 samples.

Results

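The primary cilium is a single antenna-like organelle on most vertebrate cells, and vertebrate Hedgehog signalling passes through it. With no ligand, the receptor Ptch1 keeps the membrane protein Smo out of the cilium and GLI3 is processed into a repressor, GLI3R. With ligand, Smo enters the cilium and GLI proteins are turned into activators. Cilium proteins are therefore needed both to make GLI3R and to make GLI activators. Whether GLI3R itself was found near the genes for these proteins was examined for 37 genes of cilium trafficking, the transition zone, planar polarity effectors and the arrestins that help move Smo. These 37, of 21627 protein-coding genes on the 20 chromosomes covered by the data, were listed by name, and a ChIP-seq peak was counted for a gene when its summit lay within 50 kb of the gene (0 kb inside it). All 37 were found in the gene table.

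The cells were cardiac progenitors differentiated from mouse embryonic stem cells (A2Lox.cre strain, GLI3R-FTA line) and harvested on day 6. All libraries came from this line, so untreated cells carried the tagged GLI3R construct too. The treated group received doxycycline at 500 ng/ml from day 5 to day 6, for 24 h, which the sample titles describe as GLI3R overexpression. The untreated group received none. Each condition had 2 pull-downs of tagged protein on streptavidin beads and 1 input, but 1 deposited peak list. No peak therefore has a replicate error, and the comparisons below set 2 lists side by side without a test. The pull-down targets the tag, so GLI3 made from the cells' own gene is not expected in it. Peak lists hold no expression values, so the labelled cell type was not checked against marker genes here.

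There were 3640 peaks with doxycycline and 4379 without. Each peak has the authors' fold enrichment over the local expectation and the authors' −log10 q. The pileup, the number of fragments over the summit, was worked back from the fold and the authors' −log10 p and given an exact 95% Poisson interval, which covers counting error only. Median pileups were 7 fragments with doxycycline and 5 without, and the smallest pileups listed were 5 and 4. A gene without a listed peak is thus one where no site reached that many fragments with the required enrichment, not one shown to be unbound. Background expectations, worked back in the same way, were 0.368 fragments with doxycycline and 0.272 without. The lists thus differ in background level, and sequencing depth itself was not examined.

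The share of cilium genes with a doxycycline peak was close to that of genes in general. A doxycycline summit lay within 50 kb of 7 of the 37 (18.9%), beside 20.3% of all protein-coding genes. An untreated summit lay within 50 kb of 9 (24.3%), beside 19.1% of all genes. The 7 were Arrb1, Rab34, Fuz, Ift52, Kif3a, Ift140 and Tmem67. The 9 were Evc2, Evc, Bbs4, Bbs9, Arl13b, Ift88, Ift52, Intu and Fuz. Only Ift52 and Fuz were in both sets (5.41%, beside 5.03% of all genes), and 23 members (62.2%, beside 65.7%) were in neither. Members were somewhat longer than other genes, with a median of 39.7 kb against 17.3 kb, which gives a summit more room to fall near them. Per megabase of merged windows, there were 1.69 doxycycline summits around members and 1.55 around all genes, and 1.86 and 1.65 untreated summits.

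**Figure D1:**
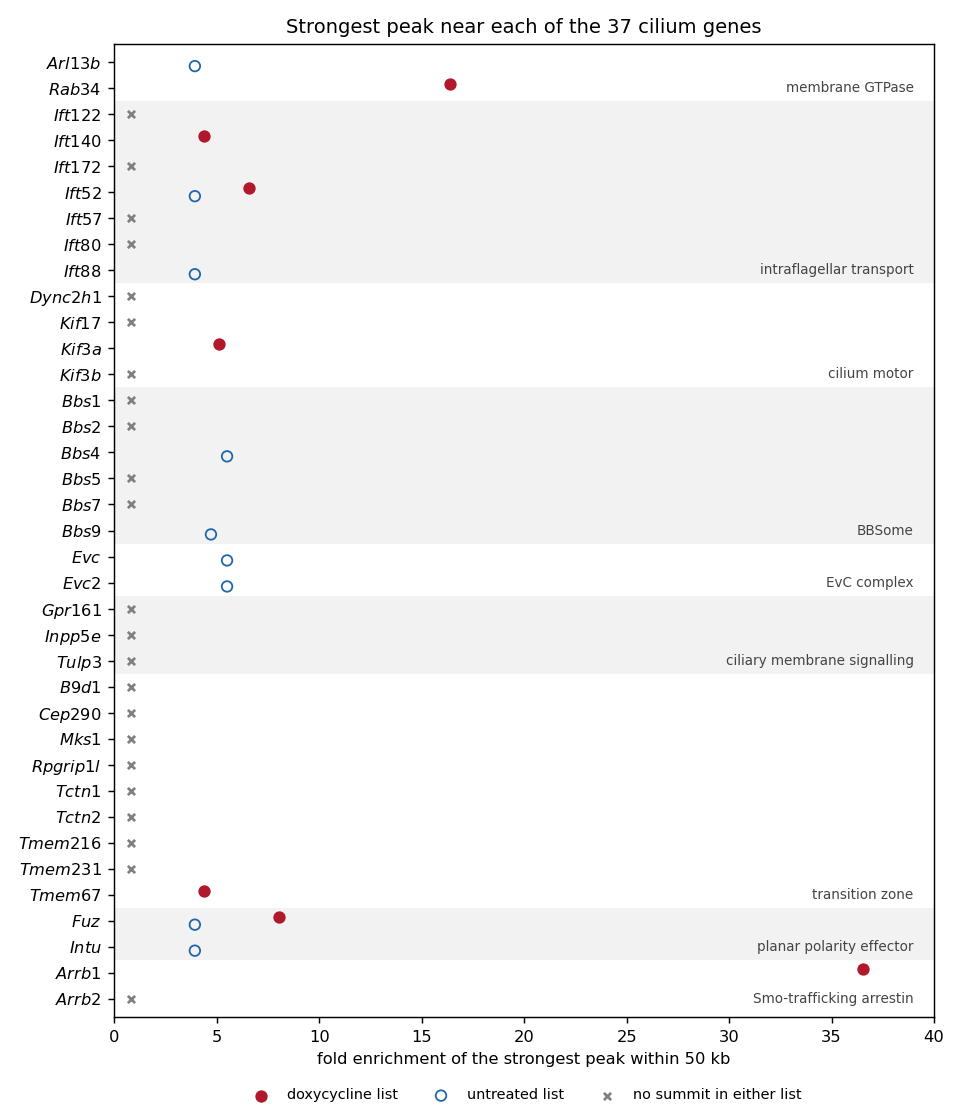
Fold enrichment (authors' value, linear axis) of the strongest peak within 50 kb of each of the 37 genes, ordered by role. Filled red points are the doxycycline list, open blue points the untreated list, and grey crosses the 23 genes with no summit in either. Arrb1 at 36.5-fold and Rab34 at 16.4-fold lie far to the right, and every untreated point lies between 3.93-fold and 5.50-fold.

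Peaks near members were stronger in the doxycycline list, a difference that 1 list per condition does not allow to be tested. The 10 doxycycline peaks ran from 4.26-fold to 36.5-fold and from 5 to 49 fragments. The 11 untreated peaks ran from 3.93-fold to 5.50-fold and from 4 to 6 fragments, and 7 of them had the smallest pileup of their list. The lists as a whole differed in the same direction by −log10 q. It was at least 5 for 33.3% of doxycycline and 9.41% of untreated peaks. Near members it was so for 5 of the 10 and 0 of the 11. The highest single fold was nonetheless in the untreated list, at 664-fold beside 36.5-fold with doxycycline. With a −log10 q of at least 5, 4 members had a doxycycline summit within 50 kb (10.8%, beside 8.51% of all genes) and 0 an untreated one (beside 2%). With a pileup of at least 10 fragments the counts were 3 (8.11%, beside 4.56%) and 0 (beside 0.518%). The peaks of Arrb1 and Rab34, which are in both of these doxycycline counts, were known when the genes were listed. Neither doxycycline share can therefore be read against that of all genes. Without Arrb1, Arrb2 and Rab34, 5 of 34 genes had a doxycycline summit (14.7%, beside 20.3% of all genes), and 2 had one with a −log10 q of at least 5 (5.88%, beside 8.51%). Both shares were then below those of all genes. None of the member peaks overlapped a peak of the other list, as was the case for most peaks, since 73 of 3640 doxycycline and 75 of 4379 untreated peaks did.

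The arrestins come first because Arrb1 held the highest fold enrichment of the whole doxycycline list. Arrb1 and Arrb2 encode beta-arrestins, adaptor proteins that bind activated receptors, and they take part in moving Smo to the cilium together with the motor subunit Kif3a. Arrb1 spans 99535147 to 99606772 on chromosome 7 of GRCm38 (mm10) and contained 3 doxycycline summits. The strongest peak (99547701 to 99548165) was enriched 36.5-fold with a −log10 q of 80.7 and 49 fragments (interval 36.3 to 64.8). It ranked 1 by fold and 19 by −log10 q among the 3640. A second peak (99539795 to 99540091), 7.94 kb away, reached 10.2-fold with 13 fragments (6.92 to 22.2), and the weakest (99541119 to 99541264) reached 4.26-fold with 5 fragments (1.62 to 11.7).

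The 3 Arrb1 summits thus fell in a stretch under 8 kb, and the pileup interval of the strongest did not overlap those of the others. Beyond the window lay a further pair, 93.1 kb and 95.6 kb away inside Gdpd5, at 6.39-fold and 5.56-fold. No other protein-coding gene lay within 50 kb of any of the 3 summits inside Arrb1. The nearest untreated summit was 498 kb from the gene. Arrb2, the paralog on chromosome 11, had no summit within 50 kb in either list; its nearest doxycycline summit was 329.8 kb away and its nearest untreated summit 911 kb away.

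Of the membrane GTPases, Rab34 acts at the mother centriole in forming the ciliary membrane, and Arl13b organises the ciliary membrane and affects Smo and GLI handling. Rab34 is short, 3.77 kb (chromosome 11, 78188427 to 78192193, plus strand). Its doxycycline peak (78189355 to 78189635) was enriched 16.4-fold with a −log10 q of 26.4 and 22 fragments (13.8 to 33.3). It ranked 32 by fold and 53 by −log10 q. The summit was inside the gene, 0.741 kb downstream of the nearer of its 2 annotated starts. By comparison, the strongest peak of Ptch1, a direct GLI target, reached 17.7-fold with 25 fragments in the same list. The window around the Rab34 summit is dense in genes, and Proca1 lay 3.19 kb and Rpl23a 5.91 kb from it. A weaker doxycycline peak, at 4.97-fold, lay 54.0 kb beyond the gene inside Sdf2, and the nearest untreated summit was 223 kb away.

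Rab34 was the only member with a doxycycline summit within 1 kb of an annotated start, 1 of the 32 members with a start in the table (3.13%, beside 1.37% of 17273 genes with one). For untreated summits the count was 0 of 32 (beside 0.249%). The Rab34 peak was known when the genes were listed, so the doxycycline share cannot be read against that of all genes. The RefSeq promoter window of the nearer start, 250 bases before to 50 after it (GRCm38.p6, plus strand, chr11:78188498-78188797), is printed because it is the member promoter closest to a strong peak. The peak itself begins 558 bases past the end of this window and none of it is printed. No capitals appear because the window holds no match to CCACCC, the core of the GLI motif, on either strand.

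Rab34 promoter: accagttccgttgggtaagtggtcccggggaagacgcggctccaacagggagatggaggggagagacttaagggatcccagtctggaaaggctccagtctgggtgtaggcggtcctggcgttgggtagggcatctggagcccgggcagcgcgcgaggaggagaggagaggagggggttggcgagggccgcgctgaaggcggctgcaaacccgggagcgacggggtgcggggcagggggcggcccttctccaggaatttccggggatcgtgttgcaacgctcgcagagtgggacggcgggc

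Arl13b (chromosome 16) had no doxycycline summit within 50 kb, the nearest being 108 kb away. It had 1 untreated summit, at 3.93-fold with 4 fragments (1.09 to 10.2), which lay 26.6 kb from the gene and inside Nsun3.

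The planar polarity effectors Fuz and Intu work together at the basal body and help load transport complexes into the cilium. Both had a doxycycline peak of more than 10 fragments, although that of Intu missed the 50 kb limit. Fuz (chromosome 7, 44894305 to 44900624) had a doxycycline peak within 50 kb at 8.02-fold with a −log10 q of 7.95 and 11 fragments (5.49 to 19.7). Fuz was not the gene nearest to that summit. An untreated summit lay 47.8 kb from Fuz, inside Tsks, at 3.93-fold with 4 fragments.

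Intu (chromosome 3, 40531291 to 40704776) showed what the distance limit leaves out. Its doxycycline peak (40479328 to 40479595) was enriched 13.9-fold with a −log10 q of 20.3 and 18 fragments (10.7 to 28.4), and ranked 61 by fold. The summit was 51.8 kb from the gene, so Intu is not among the 7. Intu was nonetheless its nearest protein-coding gene, and no such gene lay within 50 kb of it. Within the limit Intu had 1 untreated summit, 2.37 kb past its downstream end and 1.73 kb from Slc25a31, at 3.93-fold with 4 fragments. On either side of the limit in the doxycycline list, the farthest member counted was Kif3a at 37.8 kb and the nearest not counted was Intu. In the untreated list the farthest counted was Fuz, and the nearest summit of an uncounted member was 102.7 kb from Tmem67.

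**Figure D2:**
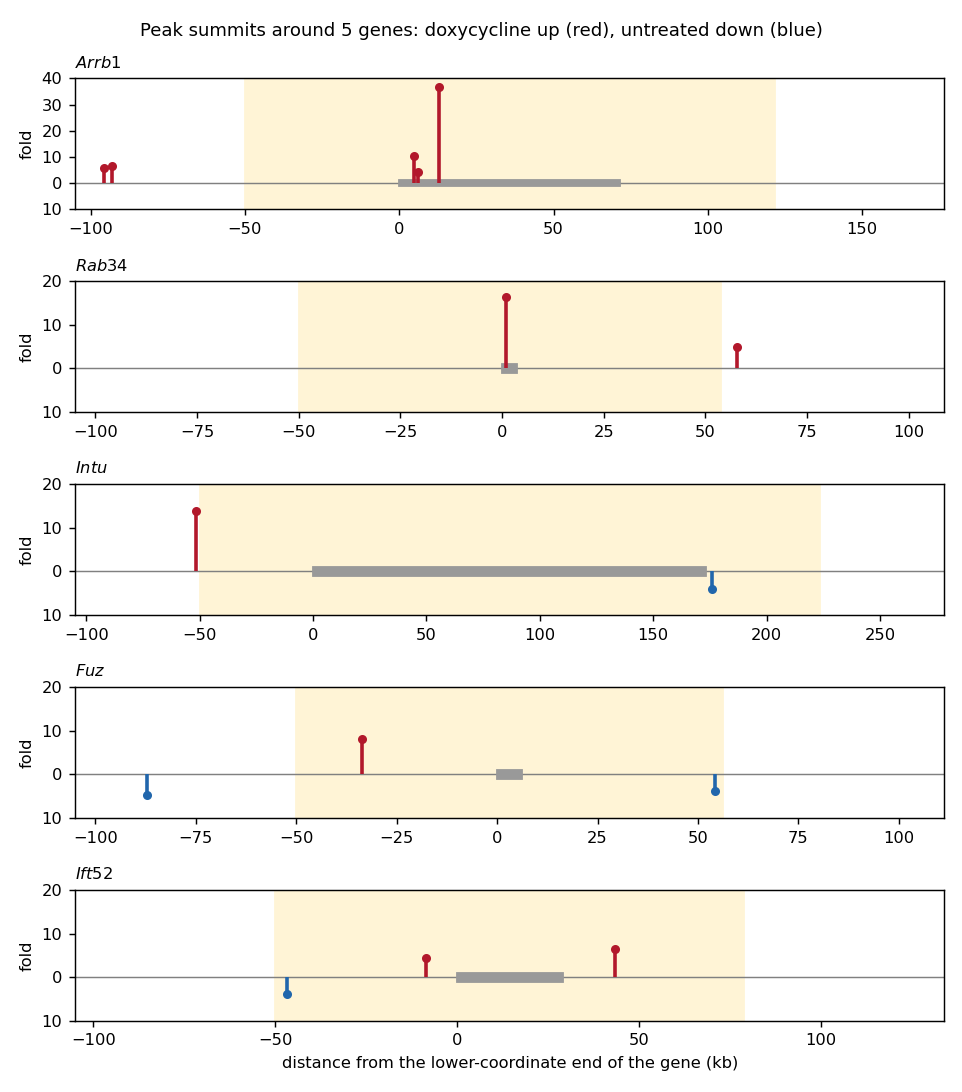
Peak summits around Arrb1, Rab34, Intu, Fuz and Ift52, with distance in kb from the lower-coordinate end of the gene (grey bar) and fold enrichment as stick height, doxycycline upward and untreated downward. Pale shading marks the 50 kb window on each side, and summits up to 100 kb away are drawn. Summits inside the gene appear for Arrb1 and Rab34, and the 13.9-fold Intu summit stands just outside the shading.

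Intraflagellar transport particles carry cargo along the cilium, with the B complex moving outward and the A complex returning. Of 7 such genes, Ift52 and Ift140 were near a doxycycline summit and Ift52 and Ift88 near an untreated one. Near neither were 4 (Ift122, Ift172, Ift57 and Ift80). The shares of all genes were 20.3%, 19.1% and 65.7%. Ift52, a core subunit of the B complex on chromosome 2, had the strongest of these peaks (163060438 to 163060594), at 6.58-fold with a −log10 q of 5.34 and 8 fragments (3.45 to 15.8). It lay 14.4 kb past the gene and inside Mybl2, which encodes a cell cycle transcription factor, 5.89 kb from a Mybl2 start. A second Ift52 summit, 8.65 kb before the gene and inside the kinase gene Sgk2, reached 4.39-fold with 5 fragments. The untreated summit, 46.7 kb away inside L3mbtl1, reached 3.93-fold with 4 fragments.

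The other transport peaks were at or near the smallest pileup of their list. Ift140, a subunit of the A complex, had a doxycycline summit at 4.39-fold with 5 fragments, 21.7 kb away inside Ptx4. Ift88, a subunit of the B complex whose loss removes cilia, had 0 doxycycline summits within 50 kb, the nearest being 537 kb away. Its 2 untreated summits, 18.1 kb and 27.3 kb away, both reached 3.93-fold with 4 fragments. Among the motors, Kif3a, a subunit of the outward kinesin, had a doxycycline summit 37.8 kb away at 5.12-fold with 6 fragments (2.20 to 13.06). That summit lay between Il13 (7.31 kb) and Rad50 (7.51 kb). Kif3b, Kif17 and Dync2h1, the last being the heavy chain of the returning dynein, had none in either list.

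The BBSome, a coat complex that moves membrane proteins out of cilia, and the EvC pair, which tether active Smo near the cilium base, had untreated summits and no doxycycline summit within 50 kb. The shares of all genes were 20.3% with doxycycline and 19.1% untreated, and so few genes cannot be set apart from them. Of 6 BBSome genes, Bbs4 and Bbs9 had untreated summits. Bbs9 is the longest member, 413 kb, and had 3 summits, with 2 inside the gene at 4.72-fold and 3.93-fold and 1 at 27.8 kb at 4.72-fold. Bbs4 had 1, 42.5 kb upstream of its start and inside Arih1, at 5.50-fold with 6 fragments. Evc and Evc2 are neighbours 1.53 kb apart and shared 1 untreated peak (chromosome 5, 37377195 to 37377334), which lay inside Evc2 at 5.50-fold with 6 fragments. These 2 genes therefore count as 2 members but rest on 1 peak. Bbs1, Bbs2, Bbs5 and Bbs7 had no summit within 50 kb in either list, and Bbs7 had a doxycycline summit 68.2 kb away at 6.52-fold.

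The transition zone is the gate at the cilium base. Of its 9 members, 1 had a summit within 50 kb in either list and 8 had none, beside 65.7% of all genes with none. The gene was Tmem67, which encodes a membrane protein of the gate. Its summit was in the doxycycline list, at 4.39-fold with 5 fragments (1.62 to 11.7), 15990 bp away with no other protein-coding gene within 50 kb. B9d1, Cep290, Mks1, Rpgrip1l, Tctn1, Tctn2, Tmem216 and Tmem231 had 0 in both lists. The distances to the nearest doxycycline summit in this group had a median of 178 kb, and Rpgrip1l was farthest of all members at 1193 kb. Gpr161, a ciliary receptor that restrains Hedgehog signalling, Tulp3, which carries it into cilia, and Inpp5e, a phosphatase that sets the ciliary membrane lipid, also had no summit within 50 kb in either list. Their nearest doxycycline summits were 79.8 kb, 153 kb and 227 kb away.

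Across all 37 members the median distance to the nearest doxycycline summit was 149 kb (quartiles 79.8 to 285 kb), beside 204 kb (70.2 to 480.2 kb) for all genes. For untreated summits it was 223 kb (102.7 to 439.5 kb), beside 211 kb (74.9 to 460.3 kb). The member distances spread from inside the gene to beyond 1000 kb in both lists. Being close to a summit also did not mean being the gene nearest to it. A member was the nearest protein-coding gene for 5 of the 10 doxycycline peaks, 3 of which were in Arrb1, and for 4 of the 11 untreated peaks, 3 of which were at Bbs9.

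**Figure D3:**
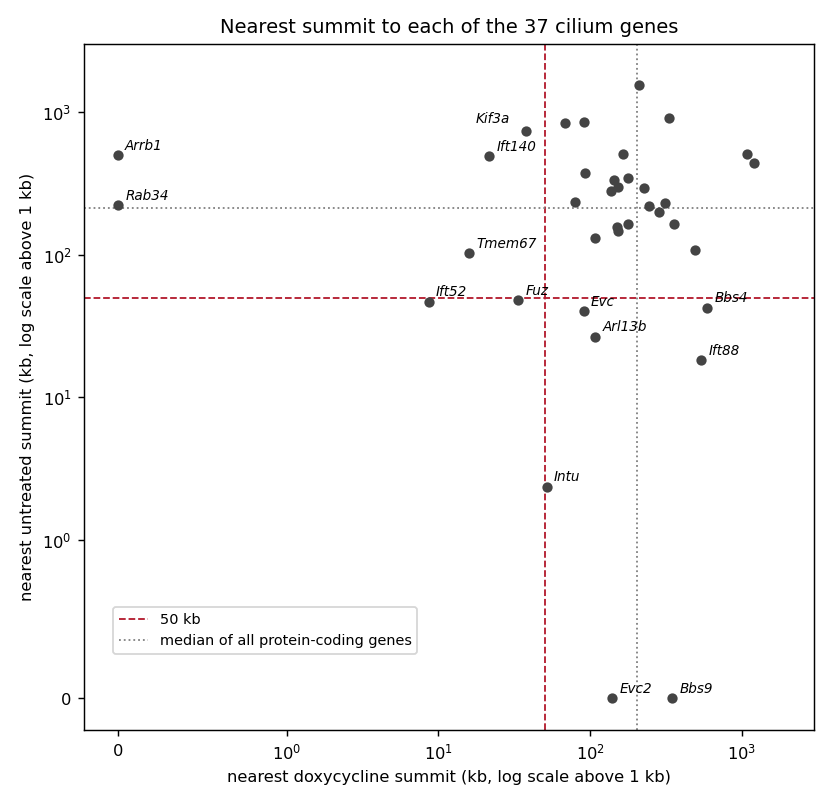
Distance from each of the 37 genes to its nearest doxycycline summit (x axis) and nearest untreated summit (y axis), in kb on a scale that is linear below 1 kb and logarithmic above; 0 means inside the gene. Dashed lines mark 50 kb and dotted lines the medians of all protein-coding genes. Arrb1 and Rab34 lie at 0 on the x axis, Evc2 and Bbs9 at 0 on the y axis, and Ift52 and Fuz in the quadrant within 50 kb of both.

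Distance and threshold set how these counts compare with all genes. With summits inside the gene, 2 members were counted in each list (5.41%, beside 6.24% of all genes with doxycycline and 6.03% untreated). With a −log10 q of at least 5 and a summit inside the gene there were 2 with doxycycline (5.41%, beside 2.35%). There were 0 untreated (beside 0.596%). The 2 were Arrb1 and Rab34, whose peaks were known when the genes were listed. That share therefore cannot be read against the share of all genes. Within 10 kb the count was 3 in each list (8.11%, beside 9.66% and 8.7%). Within 100 kb it was 13 with doxycycline (35.1%, beside 31.7%) and 9 untreated (24.3%, beside 30.6%). With each summit counted only for its nearest gene, at any distance, it was 4 (10.8%, beside 12.5%) and 3 (8.11%, beside 13.5%). With a minimum of 5 fragments, the smallest pileup with doxycycline, 4 members had an untreated summit within 50 kb (10.8%, beside 12.8%). A limit of the top 1000 peaks by −log10 q falls among 322 tied peaks with doxycycline and 630 untreated. With every tied peak kept, 4 members had a doxycycline summit (10.8%, beside 8.12%) and 3 an untreated one (8.11%, beside 6.83%). With ties broken by fold and position, which is arbitrary, the counts were 3 (beside 7.11%) and 0 (beside 4.81%). Arrb1 and Rab34 were in both of these doxycycline counts, so neither can be read against the share of all genes. Ift52, with doxycycline, and Bbs4, Evc and Evc2, untreated, stood among the tied peaks.

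**Figure D4:**
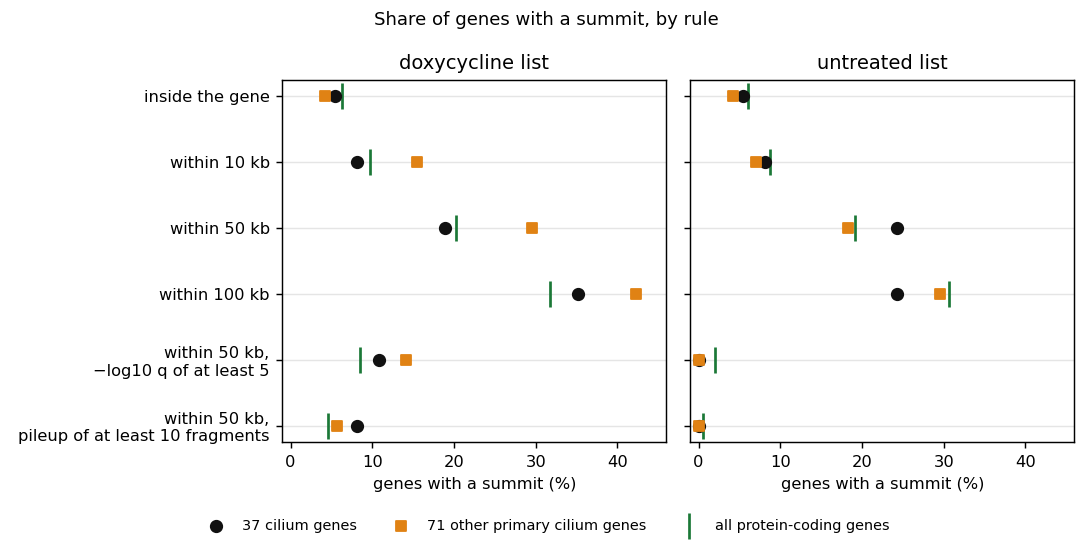
Percentage of genes with a summit under 6 counting rules, for the doxycycline list (left) and the untreated list (right). Black circles are the 37 cilium genes, orange squares the 71 other primary cilium genes and green bars all protein-coding genes. At a −log10 q of at least 5, members stood at 10.8% beside 8.51% with doxycycline and at 0% beside 2% without. The doxycycline share includes Arrb1 and Rab34, whose peaks were known when the genes were listed.

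A further 71 genes of the primary cilium, covering the remaining transport, BBSome, transition zone and centriole appendage genes and ciliary signalling proteins, were counted in the same way. A doxycycline summit lay within 50 kb of 21 (29.6%, beside 20.3%) and an untreated one within 50 kb of 13 (18.3%, beside 19.1%), and 5 had both. With a −log10 q of at least 5 the counts were 10 (14.1%, beside 8.51%) and 0 (beside 2%). With each summit counted only for its nearest gene, at any distance, they were 10 (14.1%, beside 12.5%) and 7 (9.86%, beside 13.5%). A gene of this list was the nearest for 8 of its 26 doxycycline peaks within 50 kb. The differences from all genes were not tested. By −log10 q the strongest was Nek8, a ciliary kinase, whose peak is the one inside Rab34, 12.8 kb away. Arl3, a GTPase that releases lipid-modified cargo in the cilium, followed with a 14.7-fold peak of 21 fragments, 25.6 kb from Arl3 and 0.321 kb from Wbp1l. Arl3 also lay 29.6 kb from a 10.1-fold peak that is nearer to Trim8 and to Sufu. Wdr34, an intermediate chain of the returning dynein, contained an 8.77-fold peak, and Wdr35, of the transport A complex, had one of the same fold 1.39 kb away inside Ttc32. Ift22, Ift27 and Rab3ip were equal at 7.31-fold, at 6.75 kb, 39485 bp and 0.673 kb.

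Within 1 kb of a start, 2 of 64 such genes had a doxycycline summit (3.13%, beside 1.37%). They were Rab3ip, which encodes an activator of the ciliary GTPase Rab8, and Arl6, a GTPase that recruits the BBSome to membranes. The Arl6 summit lay 0.132 kb upstream of the nearer start, so its promoter window contains the peak. Arl6 was chosen for this after its values were seen. The peak (chromosome 16, 59639464 to 59639624) was enriched 6.39-fold with a −log10 q of 5.13 and 8 fragments (3.45 to 15.8). All 161 bases of it fall in the RefSeq promoter window (GRCm38.p6, minus strand, chr16:59639360-59639659). The capitals mark the 1 match to CCACCC.

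Arl6 promoter: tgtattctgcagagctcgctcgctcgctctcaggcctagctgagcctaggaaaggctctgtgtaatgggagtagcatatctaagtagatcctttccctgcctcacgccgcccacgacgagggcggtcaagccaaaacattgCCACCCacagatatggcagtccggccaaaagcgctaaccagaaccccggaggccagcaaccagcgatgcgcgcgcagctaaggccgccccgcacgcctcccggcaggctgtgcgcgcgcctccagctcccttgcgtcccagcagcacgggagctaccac

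Among regulators of cilium formation, the RFX factors, Foxj1 and related genes, 2 of 11 had a doxycycline summit within 50 kb (18.2%, beside 20.3% of all genes), Myb and Rfx3, both at 5.12-fold with 6 fragments. An untreated one lay near 5 (45.5%, beside 19.1%), of at most 4.72-fold, a share that rests on 11 genes and was not tested. Of 24 motile cilium genes, 6 lay near a doxycycline summit (25%, beside 20.3%) and 4 near an untreated one (16.7%, beside 19.1%). The strongest was inside Dnah9, an outer dynein arm heavy chain, at 9.50-fold with 12 fragments. Rsph4a (7.31-fold), Ccdc40 (6.58-fold), Rsph9 (5.12-fold), and Cfap298 and Dnaic1 (4.39-fold each) followed.

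Promoter windows of the members were searched on both strands for the GLI motif GACCACCCA, its core CCACCC, which lies within it, and a strict form of the X-box, the element that RFX factors bind in many cilium genes. Arrb1, Arrb2, Ift122, Ift80 and Tmem67 had no listed start, so they had no window and were not searched. The windows of 32 members held 0 matches to GACCACCCA (beside 0.214% of 17273 genes) and 0 with 1 mismatch allowed (beside 7.87%). The core was found in 4, Bbs5, Mks1, Tctn2 and Tmem231 (12.5%, beside 36.5%). None of these had a summit within 50 kb in either list, as was so for 62.2% of members and 65.7% of all genes. The X-box was found in 2 (6.25%, beside 0.428%), the transition zone genes Tctn2 (chr5:124598687-124598700, gene on the plus strand) and Tmem216 (chr19:10555731-10555744, gene on the minus strand). It was also in 2 of 64 other primary cilium genes (3.13%), 1 of 18 motile cilium genes (5.56%) and 0 of 10 regulators. These X-box shares rest on few genes and were not tested. The Tctn2 and Tmem216 sites are printed to show the element that the member promoters did hold, and the capitals mark the whole match. The letters run along the gene's strand, and on it both sites hold the element as its reverse complement.

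Tctn2 X-box: GTTACCATGGCTAC
Tmem216 X-box: GTTTCCATGGGGAC

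The windows are short, Arrb1 had none, and the strong peaks of Rab34, Intu and Fuz lay outside them. These matches therefore do not bear on the sequence under the peaks of Arrb1, Rab34, Intu or Fuz.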

How the data were processed

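ChIP-seq peak lists of mouse cardiac progenitors were analysed, 1 for the 2 doxycycline pull-downs and 1 for the 2 untreated ones, grouped by sample titles. A treatment note in the labels mentions GLI1, and titles (GLI3R) took precedence. The submitters' processing notes list MACS2 2.1.1, SAMtools 1.5, Bowtie2 2.3.2 and the mm10 build. How they were set, whether inputs entered the calls and whether pull-downs were pooled is not given in the sources used here. The authors deposited for each peak a fold enrichment, which is a ratio, a −log10 p and a −log10 q, and a score equal to 10 times −log10 q without decimals, which was not used.

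Rows sharing an interval were merged, taking 3725 doxycycline rows to 3640 and 4428 untreated rows to 4379. Pileups were computed from fold, taken as pileup + 1 over expectation + 1, and a Poisson p, and a whole number matched within 0.01 of −log10 p for 99.8% of peaks in each list. Genes and promoter windows came from RefSeq tables on GRCm38.p6, the assembly of mm10. No genome sequence was used, so exons, introns and sequences under peaks were not analysed here. Coordinates count from 1.

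The members and lists were chosen with earlier results of these data known. Every member with a summit was named. Those with a −log10 q of at least 5 or a summit inside or within 1 kb were described in more detail. Coordinates or intervals were not given for all of these. Of each other list, the 6 genes with the strongest doxycycline peak were named, plus ties. No test was made, and members were set beside the share of all genes. Alternatives were other distances, thresholds and merging. On data simulated with the same formula and distance rule, 100% of 2000 pileups and 100% of 200 planted peaks were recovered. This checks the code only, not the deposited peaks. Software was matplotlib 3.10.9, scipy 1.17.1, pandas 2.3.3 and numpy 2.4.6 under Python 3.11.15.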

Additional observations from a re-analysis of the deposited data

How the results depend on the processing

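No paired analysis was possible because peaks came as 1 list for each condition, without values for single libraries. Counts of members with a doxycycline and an untreated summit (7 and 9, difference −2) moved by construction when fewer or more peaks could count. They were 3 and 3 (difference 0) within 10 kb, 13 and 9 (4) within 100 kb, 2 and 2 (0) inside the gene, and 4 and 3 (1) with the nearest gene only. With a −log10 q of at least 5 they were 4 and 0 (4), with pileups of 10 or more 3 and 0 (3), of 5 or more 7 and 4 (3), and in the top 1000 peaks 3 and 0 (3), or 4 and 3 (1) with every peak tied at that limit kept, an alternative chosen after seeing the data. The sign of the difference thus depends on the rule. Unmerged rows and leaving out shared peaks (2 ways) or sites of high local expectation left 7 and 9. Without Arrb1, Arrb2 and Rab34, chosen after seeing the data, the counts were 5 and 9 (−4). For the 71 other cilium genes the main counts were 21 and 13. They were 11 (15.5%, beside 9.66% of all genes) and 5 (7.04%, beside 8.7%) within 10 kb. Within 100 kb they were 30 (42.3%, beside 31.7%) and 21 (29.6%, beside 30.6%). For the nearest gene only they were 10 (14.1%, beside 12.5%) and 7 (9.86%, beside 13.5%). At a −log10 q of at least 5 they were 10 (14.1%, beside 8.51%) and 0 (beside 2%). Member promoters with a GLI motif numbered 0, also with 1 mismatch, and 4 with the core alone. Pileups of 4 to 6 fragments limit what the weaker peaks, or the absence of a peak, can show.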
